A study of Gallus gallus with 4 samples.

Results

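Chromosomes 17 to 28 of the chicken are small microchromosomes, and the 12 of them carried 3767 of the 22882 transcription units (TUs) assembled from nuclear chromosomes in oocytes at the lampbrush chromosome (LBC) stage. A TU is a gene of the StringTie assembly, here shown by the isoform of highest FPKM (a read level scaled to exon length and library size), and all TUs on these chromosomes were taken, with no filter on level. The samples were wild-type (WT) chicken oocytes, from which strand-specific poly(A) libraries had been made of 2 nuclei and 2 samples of ooplasm, the cytoplasm of the oocyte. Reads were pooled with earlier total RNA reads of oocyte nuclei before assembly, and whether ooplasm reads entered the pool is not stated in the sources used here. The compartments could not be set against each other, no value below has an error between oocytes, and the depth per library is unknown. TUs are given by assembly ID without gene names, so the oocyte label could not be checked against marker genes.

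Birds divide their genome between a few large macrochromosomes and many small microchromosomes, which are known to be gene-rich, rich in G and C and replicated early. During the lampbrush stage of meiotic prophase, each chromosome extends lateral loops on which RNA polymerases are densely packed, and a loop can hold 1 TU or several neighbouring TUs. The orientation and spacing of neighbouring TUs therefore set how transcribed stretches of the chromosome meet.

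Every microchromosome from 17 to 28 was denser in TUs than chromosomes 1, 2 and 3. Below, the microchromosomes are these 12 only, and the small chromosomes 16 and 29 to 38 are not counted among them. Density was counted over the extent, the distance from the first to the last TU. It ran from 29.6 TUs per Mb on chromosome 20 through a median of 38.4 to 69.6 on chromosome 25, whereas chromosomes 1, 2 and 3 had 14.6, 14.4 and 18.5. The mean was 41.7 ± 12.1 TUs per Mb (SD, n = 12 chromosomes) against 15.9 ± 2.30 (n = 3), a difference of 25.8 (two-sided exact permutation test over chromosomes, p = 0.00440, the smallest this design allows, Benjamini-Hochberg adjusted p = 0.00719 over 18 tests). High density is what the chromosomes were grouped for and is no independent evidence. Chromosomes outside the group were as dense, with 56.4 TUs per Mb on chromosome 30 and 50.9 on chromosome 33, and chromosome 15 with 34.4 exceeded chromosome 20. Chromosomes of a single assembly are not replicates of an experiment, so these p-values describe only how the values are arranged over chromosomes.

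The microchromosomes were also small in extent, from 3.96 Mb on chromosome 25 to 15.3 Mb on chromosome 20, and held from 231 TUs on chromosome 22 to 454 on chromosome 20. Together they covered 9.10% of the summed extent of nuclear chromosomes but held 16.5% of all TUs and 20.9% of the summed FPKM. FPKM is scaled to exon length and came from separate runs for forward and reverse reads, so its sum is not a share of reads.

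TUs on these chromosomes lay crowded together. For each TU, the number of other TUs with a midpoint within 50 kb was counted, and its median was 4 on chromosomes 17, 19, 20 and 21, 5 on chromosomes 18, 23, 24 and 26, 6 on chromosomes 22 and 28, 7 on chromosome 27 and 8 on chromosome 25. On chromosomes 1, 2 and 3 the median was 2 on each. The means of 5.25 ± 1.29 (SD, n = 12) and 2.00 ± 0 (n = 3) did not overlap in range (exact permutation p = 0.00440, adjusted 0.00719). Crowding is local density, so this too restates what the chromosomes were grouped for. The most crowded TU had 20 others around it on chromosome 18 and 19 on chromosome 25, but up to 19 were also reached on chromosomes 1 to 3, so the difference lay in the typical TU and not in the extreme.

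Introns were short on every chromosome from 17 to 28, whereas internal exons had the length seen on chromosomes 1 to 3. An intron is the sequence between consecutive exons of a TU, as drawn by the assembler from spliced reads, and an internal exon has an intron on each side. The median intron was 559 bp on chromosome 17, 516 bp on chromosome 18, 551 bp on chromosome 19, 637 bp on chromosome 20, 495 bp on chromosome 21 and 419 bp on chromosome 22. It was 432 bp on chromosome 23, 502 bp on chromosome 24, 317 bp on chromosome 25, 437 bp on chromosome 26, 345 bp on chromosome 27 and 415 bp on chromosome 28. Chromosomes 1, 2 and 3 had medians of 1072, 1188 and 1051 bp, all above the longest of the 12. The mean of the medians was 469 ± 92.1 bp (SD, n = 12) against 1104 ± 73.8 bp (n = 3), a difference of -635 bp (exact permutation p = 0.00440, adjusted 0.00719).

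The median internal exon measured between 118 bp on chromosome 27 and 130 bp on chromosome 21, around the 124, 123 and 124 bp of chromosomes 1, 2 and 3. The mean was 124 ± 3.54 bp (SD, n = 12) against 124 ± 0.577 bp (n = 3), with a difference of 0.167 bp that was smaller than the spread between chromosomes (exact permutation p = 1.00, adjusted 1.00). Over the 20199 internal exons of the microchromosomes the quartiles were 90, 124 and 168 bp, and over the 31811 of chromosomes 1 to 3 they were 90, 124 and 165 bp.

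**Figure D1:**
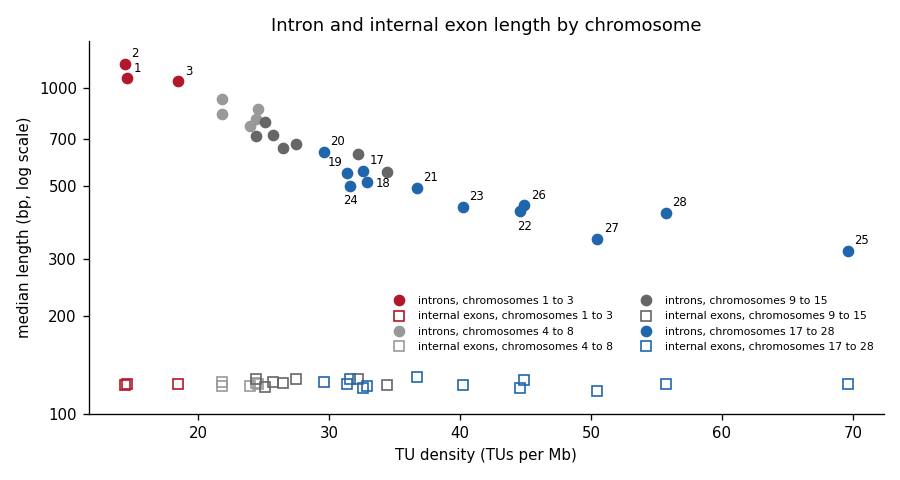
Median intron length (filled circles) and median internal exon length (open squares) in bp, on a log scale, against TU density in TUs per Mb, with 1 point of each kind per chromosome. Introns of the numbered microchromosomes (blue) lie between 317 and 637 bp, below the 1051 to 1188 bp of chromosomes 1 to 3 (red), while internal exons stay between 118 and 130 bp on the microchromosomes.

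Intron lengths were lower on the microchromosomes at both quartiles as well as at the median. Over 23200 introns of chromosomes 17 to 28 the quartiles were 209, 486 and 1010.0 bp, against 519, 1098 and 2492 bp over 36895 introns of chromosomes 1 to 3. The ratio was 2.48 at the lower quartile, 2.26 at the median and 2.78 at percentile 95, where the microchromosomes reached 4642 bp and chromosomes 1 to 3 reached 12889.6 bp. Introns under 100 bp made up 2463 of those on the microchromosomes, a share of 10.6% (95% Wilson interval 10.2 to 11), and 4.58% of those on chromosomes 1 to 3. By chromosome, the share under 100 bp was lowest on chromosome 20 with 6.33% and highest on chromosome 25 with 20.4%. Each value was above the 4.25% to 5.25% of chromosomes 1 to 3. The range overlapped the 6.01% to 10.6% of chromosomes 9 to 15 and the 7.57% to 29.9% of chromosomes 16 and 29 to 38. Introns of 10 kb or more were rare on the microchromosomes, with 433 (1.87%) against 2423 (6.57%). At the ends of the distribution this did not hold, since introns under 50 bp were 0.362% and 0.463% and the longest intron had 369723 bp on the microchromosomes and 281107 bp on chromosomes 1 to 3.

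First introns, which in vertebrates often hold regulatory sequence, were longer than later ones in both groups and shorter on the microchromosomes by a like factor. Their median was 703 bp on the microchromosomes and 1542 bp on chromosomes 1 to 3, a ratio of 2.19, and later introns had medians of 469 and 1068 bp, a ratio of 2.28. Terminal exons were not alike in this respect. First exons had medians of 292 and 303 bp, whereas last exons, which usually carry the 3′ untranslated region, had medians of 1603 bp on the microchromosomes and 2464 bp on chromosomes 1 to 3. The ends of an assembled TU depend on where read coverage stops, so the lengths of terminal exons are less certain than those of internal ones.

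TUs of the microchromosomes were short although they had more exons. The median span, which runs over all exons and introns of the TU, was lowest on chromosome 25 with 3.85 kb and highest on chromosome 20 with 9.66 kb, with a median of 7.19 kb over the 12 chromosomes. Chromosomes 1, 2 and 3 had 11.5, 13.0 and 13.6 kb, and no microchromosome reached them (7.33 ± 1.66 kb, SD, n = 12, against 12.7 ± 1.11 kb, n = 3, exact permutation p = 0.00440, adjusted 0.00719). TUs of 50 kb or more were 189 of 3767 (5.02%) on the microchromosomes and 937 (13.0%) on chromosomes 1 to 3. Chromosome 25 was the extreme with 0.362%, and chromosome 19 with 9.60% came closest to the 12.5% to 13.4% of chromosomes 1 to 3.

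Multi-exon TUs had a median of 5 to 7 exons on the microchromosomes and of 4 to 5 on chromosomes 1 to 3 (means 6.25 ± 0.622, SD, n = 12, and 4.67 ± 0.577, n = 3, exact permutation p = 0.0132, adjusted 0.0183). This difference was 1.75 exons without chromosome 1 or chromosome 2 and 1.25 without chromosome 3. It then did not pass the threshold (exact permutation, adjusted p = 0.0659, 0.0659 and 0.0848). With any of these chromosomes left out, no measure had an exact permutation p below 0.0220 before adjustment. Nor did the exon-number difference pass with isoforms merged (exact permutation, adjusted p = 0.107). For the more active TUs, those not below the median FPKM of their run, it was -0.0417 exons. TUs of a single exon were fewer, from 15.3% on chromosome 26 to 26.2% on chromosome 24, against 28.2% to 30.5% on chromosomes 1 to 3 (20.3 ± 3.24%, SD, n = 12, and 29.4 ± 1.13%, n = 3, exact permutation p = 0.00440, adjusted 0.00719). Since exon number differed, spans were next compared at equal exon number.

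At every exon number from 2 to 30 the median span was shorter on the microchromosomes. With 2 exons, 623 TUs of the microchromosomes had a median span of 5.69 kb and 1454 TUs of chromosomes 1 to 3 had 10 kb. For 5 exons the medians were 6.52 kb (n = 200 TUs) and 13.0 kb (n = 299), and for 10 exons they were 9.97 kb (n = 112) and 24.3 kb (n = 170). TUs with 20 exons had 22.2 kb (n = 28) and 39.2 kb (n = 44), and those with 30 exons had 41.6 kb (n = 11) and 66.6 kb (n = 12). Over the 29 exon numbers the ratio of spans ran from 1.09 to 2.97 with a median of 2.06. The median intron was also shorter at 29 of 29 exon numbers, by a ratio of 1.39 to 2.94. The median exonic length was lower at 16 and higher at 13 of them. It was lower at every exon number from 2 to 14, with 2.41 kb against 3.64 kb at 5 exons. All higher values came at 15 or more exons, where TUs were fewer.

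TUs of median span at their exon number serve as examples and are typical in span only. FORW.10311 on chromosome 28 (4512592 to 4519083 in ASM2420605v2, forward strand) placed 5 exons in 6.49 kb with a median intron of 117 bp and an exonic share of 92.2%, against medians of 596 bp and 46.2% for 5 exons on the microchromosomes, and FORW.1577 on chromosome 2 placed 5 exons in 13.0 kb. FORW.10002 on chromosome 26 (3570420 to 3580452) had 10 exons in 10 kb, and FORW.1314 on chromosome 1 had 10 in 23.9 kb. With 20 exons, FORW.9236 on chromosome 20 (12651098 to 12675177) spanned 24.1 kb and FORW.2324 on chromosome 2 spanned 39.6 kb.

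**Figure D2:**
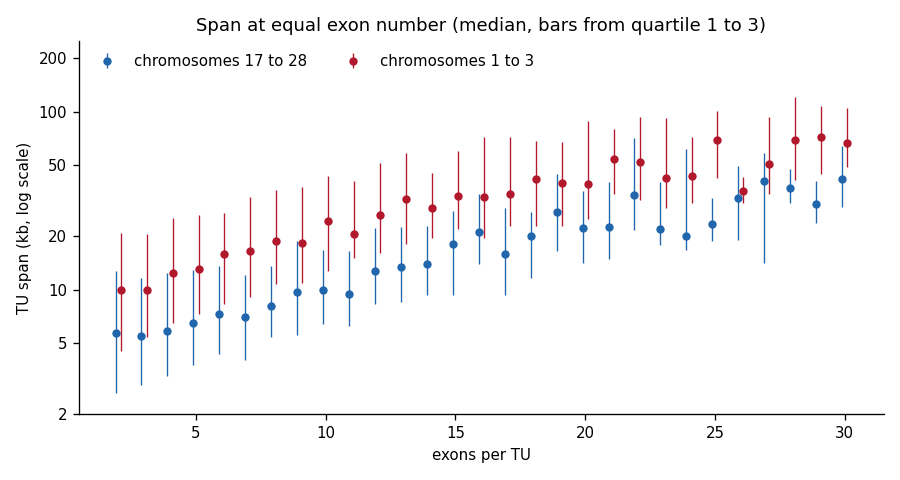
Median span of TUs in kb, on a log scale, against the number of exons from 2 to 30, for chromosomes 17 to 28 (blue) and chromosomes 1 to 3 (red); bars run from the lower to the upper quartile over TUs. The blue median lies below the red one at each of the 29 exon numbers, by a ratio between 1.09 and 2.97.

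To compare chromosomes at equal exon number, TUs were put into 5 classes (2 to 3, 4 to 6, 7 to 10, 11 to 15 and 16 or more exons), and each chromosome's class medians were weighted by the class shares of the microchromosomes. The matched span ranged from 7.16 kb on chromosome 25 to 13.9 kb on chromosome 20, and chromosomes 1 to 3 had 19.9 to 22.9 kb (10.7 ± 2.08 kb, SD, n = 12, against 21.5 ± 1.50 kb, n = 3, exact permutation p = 0.00440, adjusted 0.00719). Matched introns measured between 326 bp on chromosome 27 and 773 bp on chromosome 20, against 1171 to 1298 bp (544 ± 139 bp against 1232 ± 63.9 bp, same n and the same exact p). Neither range overlapped that of chromosomes 1 to 3. The class of 16 or more exons had the widest gap in kb, with median spans of 27.1 kb over 448 TUs and 52.1 kb over 743.

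A larger part of each TU was exon on the microchromosomes. The exonic share is the percentage of the span of a multi-exon TU that lies in its exons. Unspliced nuclear RNA that was joined during assembly counts as exon in it. Its median was 41.4% on chromosome 19, the lowest, 47.6% in the middle of the 12 and 50.8% on chromosome 20, the highest, against 31.1%, 34.3% and 40.2% on chromosomes 1, 2 and 3 (46.9 ± 2.98%, SD, n = 12, and 35.2 ± 4.60%, n = 3, exact permutation p = 0.00440, adjusted 0.00719). At equal exon-number weights the shares were 47.2% to 57.3% on the microchromosomes and 38% to 41.4% on chromosomes 1 to 3 (51.6 ± 2.66% and 39.5 ± 1.76%, same n, exact permutation p = 0.00440, adjusted 0.00719). The gap was small in TUs of 2 to 3 exons, with medians of 79.4% and 76.5%, and wide in those of 16 or more, with 29.2% and 13.2%. At exactly 2 exons the share was not higher on the microchromosomes, with 83.6% against 84.0%.

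TUs with the most exons on each chromosome ranged from 34 exons on chromosome 26 (REV.9796, 42.8 kb) to 106 exons on chromosome 21. The latter, REV.9184 (4606920 to 4675194, reverse strand), fitted 106 exons into 68.3 kb with a median intron of 337 bp and an FPKM of 18.7. Chromosome 20 had REV.8982 (9252772 to 9332225) with 79 exons in 79.5 kb, of which 47.9% was exon. On the densest chromosome, 25, FORW.9840 (2043186 to 2064416) had 41 exons in 21.2 kb with a median intron of 230.5 bp, and on chromosome 27 REV.10024 (5477362 to 5495094) had 35 exons in 17.7 kb. Among TUs of at least 10 exons, the highest exonic shares were 90.1% in FORW.9982 on chromosome 26, whose 10 exons spanned 34.4 kb, 86.0% in REV.9452 on chromosome 23, with a median intron of 84.0 bp, and 84.8% in FORW.9608 on chromosome 23, with a median intron of 95 bp.

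The 5 longest TUs of the microchromosomes lay mostly in introns, although a TU of 116 kb on chromosome 22 (REV.9241, 53 exons) was 42.6% exon. REV.10061 on chromosome 28 (289472 to 666523) spanned 377 kb with 4 exons and an intron of 369.7 kb, and FORW.9734 on chromosome 24 (5688880 to 6022061) spanned 333 kb with 9 exons and an intron of 329 kb. Their FPKM values were 0.991 and 1.14, and each rests on a very long junction in a weak TU. REV.8844 on chromosome 19 (8972710 to 9274715) was 302 kb long with 24 exons, an exonic share of 1.23% and an FPKM of 8.51, and had no other TU midpoint within 50 kb. REV.9085 on chromosome 20 (13967393 to 14181372) was 214 kb long with 3 exons and an FPKM of 11.1, and FORW.8923 on chromosome 19 (5189257 to 5389329) was 200.1 kb long with 23 exons and an FPKM of 2.01. Chromosome 18 held REV.8577 (6345774 to 6506333), which had an FPKM of 33.6 over 161 kb and an exonic share of 2.13%.

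TUs covered more of the sequence on most microchromosomes than on chromosomes 1 to 3. The share of the extent inside a TU on at least 1 strand was 54.0% on chromosome 17, 52.5% on chromosome 18, 54.5% on chromosome 19, 52.3% on chromosome 20, 60.4% on chromosome 21 and 52.0% on chromosome 22. It was 38.9% on chromosome 23, 47.0% on chromosome 24, 45.8% on chromosome 25, 52.4% on chromosome 26, 42.1% on chromosome 27 and 58.7% on chromosome 28. The values of chromosomes 24 and 28 include FORW.9734 (333 kb) and REV.10061 (377 kb), TUs of low FPKM that are almost all 1 intron. Their shares without these TUs were not computed. Chromosomes 1, 2 and 3 had 35.4%, 37.5% and 46.5%, so chromosomes 23, 25 and 27 fell within their range and the other 9 lay above it. The mean was 50.9 ± 6.37% (SD, n = 12) against 39.8 ± 5.92% (n = 3), a difference of 11.1 percentage points (exact permutation p = 0.0264, adjusted 0.0339). Without chromosome 1 the difference was 8.85 and without chromosome 2 it was 9.93, both with an adjusted p of 0.141, and among TUs of at least 5 kb it was 8.69 (exact permutation, adjusted p = 0.0852), so the call was lost in all 3.

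This gain was smaller than the gain in density. Pooled over the microchromosomes, density was 38 TUs per Mb against 15.5 on chromosomes 1 to 3, a ratio of 2.45, whereas the share of the extent transcribed was 51.4% against 38.8%, a ratio of 1.33. The share in exons of either strand was 22.5% against 13.1%, a ratio of 1.72. Intermediate chromosomes 9 to 15, which were less dense with 24.4 to 34.4 TUs per Mb, were covered more fully. Their share transcribed was 52.7% to 65.0%, and against these 7 chromosomes the microchromosomes were lower by a difference of -8.46 percentage points (exact permutation p = 0.00703, adjusted 0.0181). Within the 12 microchromosomes, density and the share transcribed had a Spearman rho of -0.238, given as a description.

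**Figure D3:**
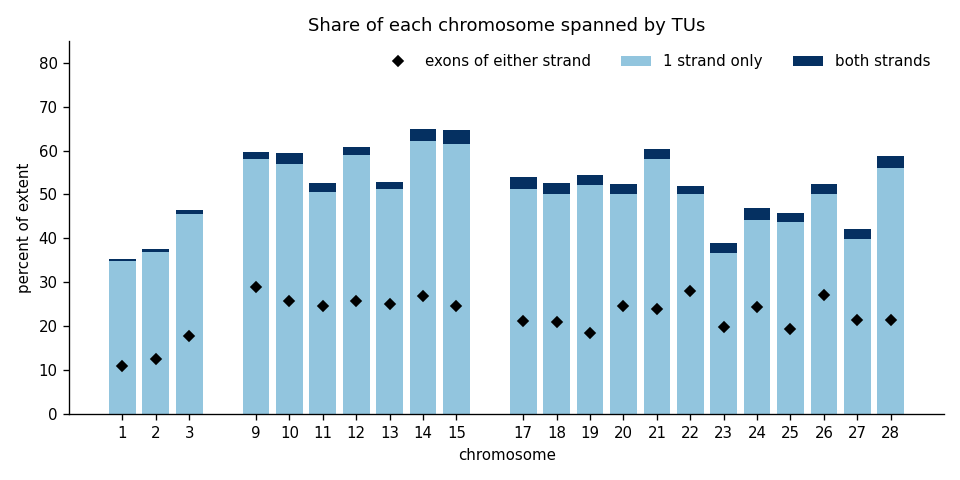
Share of the extent of each chromosome covered by TUs in percent, split into sequence covered on 1 strand only (light) and on both strands (dark), with the share in exons of either strand as diamonds, for chromosomes 1 to 3, 9 to 15 and 17 to 28. Bars of the microchromosomes reach 38.9% to 60.4%, those of chromosomes 1 to 3 reach 35.4% to 46.5% and those of chromosomes 9 to 15 reach 52.7% to 65.0%, and the dark part is 1.98% to 2.75% on the microchromosomes.

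Sequence transcribed on both strands was a small part of every chromosome and was larger on each microchromosome. It ranged from 1.98% of the extent on chromosome 22 through a median of 2.35% to 2.75% on chromosome 24, against 0.614%, 0.619% and 1.03% on chromosomes 1, 2 and 3. The means were 2.35 ± 0.252% (SD, n = 12) and 0.756 ± 0.241% (n = 3), a difference of 1.60 percentage points (exact permutation p = 0.00440, adjusted 0.00719), and the pooled shares of 2.37% and 0.717% had a ratio of 3.31. If the 2 strands were covered independently, the share would be 4.19% to 9.56% on the microchromosomes and 3.20% to 5.63% on chromosomes 1 to 3. The observed share was lower on each of these chromosomes. By TU, 1569 of 3767 (41.7%, 95% Wilson interval 40.1 to 43.2) shared at least 1 bp with a TU of the opposite strand, against 35.6% of all nuclear TUs and 32.4% on chromosomes 1 to 3. Chromosome 17 was highest with 48.9%, and chromosomes 22 (31.6%), 25 (33.7%) and 26 (34.2%) lay within the 30.1% to 34.8% of chromosomes 1, 2 and 3. On chromosomes 9 to 15 this share of TUs was 35.4% to 46.3%, around the pooled 41.7% of the microchromosomes. Neither the share of the extent on both strands nor that of overlapped TUs was adjusted for TU density. The chromosomes were grouped for density, so neither is independent evidence. Within the 12, the share of the extent on both strands had a Spearman rho of -0.294 with density, given as a description.

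TUs recorded on the strand opposite to the run in which they were assembled were 141 of 3767 TUs (3.74%) on the microchromosomes and 80 (1.11%) on chromosomes 1 to 3. Of the 141, 130 (92.2%) lay over a TU of the same strand from the other run. Leaving such TUs out, the difference in sequence transcribed on both strands was again 1.60 percentage points (exact permutation p = 0.00440, adjusted 0.00719).

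Stretches without any TU were short, which is not independent of the density for which the chromosomes were grouped. Their median length was between 3.51 kb on chromosome 25 and 6.09 kb on chromosome 20, with 3.55 kb on chromosome 27 and 3.72 kb on chromosome 28, and it was 14.2 to 19.4 kb on chromosomes 1 to 3. The longest stretch was 137 kb on chromosome 21, where the share transcribed was highest, and passed 1 Mb on chromosomes 20 (1372 kb) and 24 (1222 kb). Assembly gaps could not be told apart from untranscribed sequence, since no genome of this build was used here.

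Neighbouring TUs of at least 5 kb, ordered by midpoint, formed 2361 pairs on the microchromosomes. The minimum span dropped unequal shares of TUs by chromosome. Chromosome 25 kept 112 pairs from 276 TUs, whereas chromosome 1 kept 2159 pairs from 2930 TUs. Shorter TUs can therefore lie between the members of a pair, and a TU nested in another is also paired by midpoint. Pairs are convergent when they point towards each other, divergent when they point apart and co-directional when they share a strand. There were 535 convergent (22.7%), 546 divergent (23.1%) and 1280 co-directional pairs (54.2%, 95% Wilson interval 52.2 to 56.2), and 57.1% were co-directional on chromosomes 1 to 3. The co-directional share by chromosome was lowest on chromosome 28, where 81 of 180 pairs (45.0%) shared a strand, and highest on chromosome 25, where 69 of 112 (61.6%) did. Chromosomes 1, 2 and 3 had 53.9%, 57.5% and 60.9%, and the ranges overlapped (54.6 ± 4.90%, SD, n = 12, and 57.4 ± 3.50%, n = 3, difference -2.79 percentage points, exact permutation p = 0.382, adjusted 0.430). No difference in orientation passed the test.

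**Figure D4:**
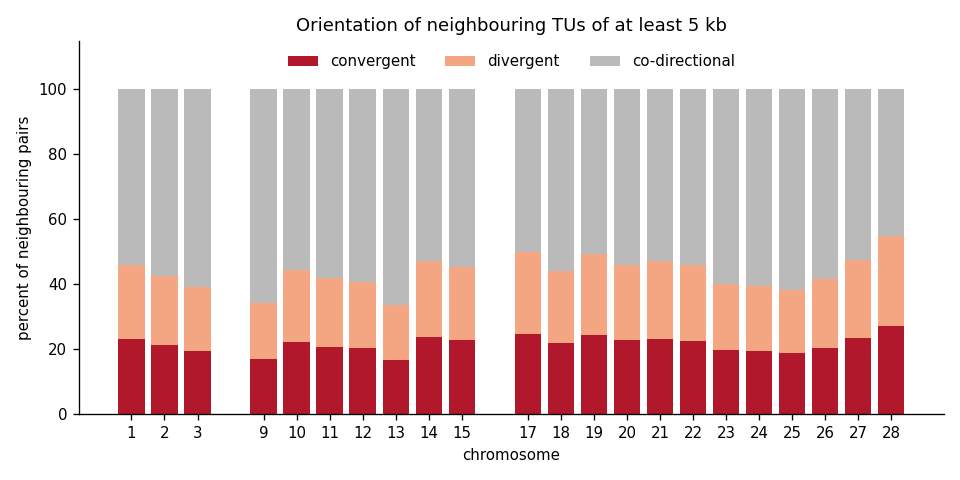
Percent of neighbouring pairs of TUs of at least 5 kb that were convergent (red), divergent (orange) or co-directional (grey) on chromosomes 1 to 3, 9 to 15 and 17 to 28. The grey part runs from 45.0% on chromosome 28 to 61.6% on chromosome 25 and overlaps the 53.9% to 60.9% of chromosomes 1 to 3.

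Oppositely oriented neighbours lay closer together on the microchromosomes. Their gap is signed, with overlaps counted as negative, and its median was 0.190 kb on chromosome 21, the lowest, 1.84 kb in the middle of the 12 and 5.05 kb on chromosome 25, the highest. Chromosomes 1, 2 and 3 had 9.61, 9.83 and 2.76 kb, so 10 of the 12 lay below all of these, and chromosomes 19 (3.52 kb) and 25 did not. The means were 2.13 ± 1.24 kb (SD, n = 12) and 7.40 ± 4.02 kb (n = 3), a difference of -5.27 kb (exact permutation p = 0.0132, adjusted 0.0183). This call was lost without chromosome 1 (-4.17 kb) or chromosome 2 (-4.06 kb), with adjusted p of 0.0913 for both in the exact permutation test, and among TUs of at least 10 kb (-0.981 kb, adjusted p = 0.875). Spacing depends on density, for which the chromosomes were grouped, so the gap is no independent evidence.

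Overlap between opposite neighbours varied widely among the microchromosomes, from 14.0% of pairs on chromosome 25 to 41.0% on chromosome 21, around 26.0%, 25.5% and 32.0% on chromosomes 1, 2 and 3. The means of 31.4 ± 7.31% (SD, n = 12) and 27.8 ± 3.57% (n = 3) differed by 3.54 percentage points, less than the spread between chromosomes (exact permutation p = 0.444, adjusted 0.470). Pooled convergent pairs overlapped in 191 of 535 cases (35.7%) on the microchromosomes and in 25.3% on chromosomes 1 to 3, and divergent pairs in 164 of 546 (30.0%) and 29.6%. The median gap was 2.57 kb for convergent, 1.26 kb for divergent and 8.92 kb for co-directional pairs, against 9.83, 4.03 and 21.9 kb on chromosomes 1 to 3. Pairs less than 1 kb apart without overlap made up 18.5% of divergent pairs (101 of 546) and 8.60% of convergent pairs (46 of 535), against 14.2% and 6.72% on chromosomes 1 to 3 and 15.9% and 9.29% on chromosomes 9 to 15, values for which no test was made.

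The 3 convergent and 3 divergent pairs whose weaker TU had the highest FPKM percentile varied in spacing, from an overlap to 7.12 kb. Over all pairs of the microchromosomes the median gap was 2.57 kb for convergent and 1.26 kb for divergent ones. REV.9881 and FORW.10002 on chromosome 26 diverged from ends only 41 bp apart, with FPKM of 46.8 and 43.6. FORW.9935 and REV.9822 on the same chromosome converged and overlapped by a signed gap of -949 bp, with FPKM of 37.5 and 44.8. On chromosome 20, FORW.9162 (FPKM 55.3) and REV.8980 (42.3) converged across 1.48 kb, and REV.9002 (104) and FORW.9176 (43.3) diverged across 7.12 kb. The convergent pair FORW.9729 and REV.9617 on chromosome 24, with FPKM of 54.6 and 74.3, was 4.23 kb apart, and the divergent pair REV.9232 and FORW.9410 on chromosome 22, with 43.3 and 59.8, was 5.12 kb apart.

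TUs of the microchromosomes ranked higher in FPKM than those of chromosomes 1 to 3. FPKM here gives the level of RNA in pooled poly(A) and total RNA reads and not the rate of transcription. Forward and reverse reads were assembled in separate runs, so activity was taken as the percentile of a TU's FPKM among all TUs of its run. Its median was 57.4 on chromosome 17, 58.6 on chromosome 18, 62.3 on chromosome 19, 58.2 on chromosome 20, 61.4 on chromosome 21 and 55.8 on chromosome 22. It was 61.2 on chromosome 23, 48 on chromosome 24, 52.1 on chromosome 25, 58.0 on chromosome 26, 53.3 on chromosome 27 and 60.2 on chromosome 28. All 12 exceeded the 47.7, 46.8 and 46.5 of chromosomes 1, 2 and 3, chromosome 24 only by a small margin. The mean was 57.2 ± 4.26 (SD, n = 12) against 47.0 ± 0.637 (n = 3), a difference of 10.2 percentile points (exact permutation p = 0.00440, adjusted 0.00719).

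The difference was smaller once exon number was equal. Multi-exon TUs were more active than single-exon TUs in both groups, with median percentiles of 66.6 and 21.3 on the microchromosomes and 59.9 and 23.4 on chromosomes 1 to 3. Between multi-exon TUs alone the difference over chromosomes was 6.23 points (exact permutation p = 0.0220, adjusted 0.0330). At equal exon-number weights it was 2.10 points, 64.1 ± 2.63 (SD, n = 12) against 62.0 ± 0.544 (n = 3), and did not pass the test (exact permutation p = 0.220, adjusted 0.264). Of the 12, 9 lay above all of chromosomes 1 to 3 and 2 below all. With 1 chromosome left out at a time, the difference was 1.80 to 2.63 points. The lowest adjusted p of the exact permutation test was then 0.0593. By class, medians were 43.1 and 39.2 for 2 to 3 exons, 68.7 and 62.3 for 4 to 6 exons, 74.7 and 74.6 for 7 to 10 exons, 78.5 and 77.1 for 11 to 15 exons and 77.7 and 78.8 for 16 or more. Over exon numbers 2 to 30 the median percentile was higher on the microchromosomes at 16 and lower at 13.

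**Figure D5:**
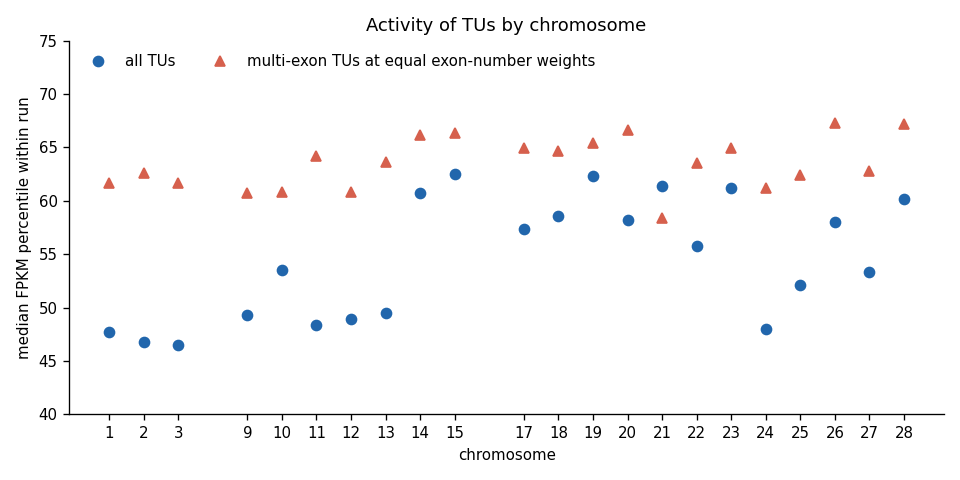
Median FPKM percentile within run for all TUs of a chromosome (circles) and for multi-exon TUs at equal exon-number weights (triangles), on chromosomes 1 to 3, 9 to 15 and 17 to 28; the vertical axis starts at 40. Circles of the microchromosomes lie between 48 and 62.3, above the 46.5 to 47.7 of chromosomes 1 to 3. Triangles lie between 58.4 and 67.3, with 9 of 12 above the 61.7 to 62.6 of chromosomes 1 to 3 and 2 below.

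Highly active TUs were found on every microchromosome. TUs at FPKM percentile 90 or more of their run numbered 511 of 3767 (13.6%, 95% Wilson interval 12.5 to 14.7), against 9.99% of all nuclear TUs and 639 (8.87%) on chromosomes 1 to 3. Chromosome 28 had the highest share with 16.6%, followed by chromosomes 23 (16.5%) and 19 (16.1%), and only chromosome 25 with 9.42% was within the 8.03% to 9.73% of chromosomes 1, 2 and 3. On chromosomes 9 to 15 the share was 8.88% to 14.2%, which overlaps the range of the microchromosomes. These shares were not matched for exon number. The median FPKM over all TUs was 2.81 on the microchromosomes and 1.75 on chromosomes 1 to 3.

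The strongest TU of each chromosome reached an FPKM between 101 on chromosome 25 and 855 on chromosome 21. REV.9163 on chromosome 21 (3233161 to 3245749) had 12 exons in 12.6 kb, and FORW.8976 on chromosome 19 (7909144 to 7911064), with an FPKM of 448, had 2 exons in 1.92 kb. FORW.9685 on chromosome 24 (3130532 to 3136115) reached 369 with 9 exons in 5.58 kb, and FORW.9613 on chromosome 23 reached 250.3 with 2 exons in 1.72 kb. On chromosomes 17, 18, 20, 22, 26, 27 and 28 the highest values were 213 (FORW.8562), 194 (FORW.8722), 149 (REV.8934), 169 (FORW.9492), 155 (REV.9898), 174 (REV.10046) and 169 (REV.10088). These 12 TUs spanned 1.72 to 17.3 kb.

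Within the microchromosomes, activity went with exon number, against exonic share and hardly with intron length. Across 3001 multi-exon TUs, the FPKM percentile had a Spearman rho of 0.435 with the number of exons, -0.368 with exonic share, 0.204 with span and 0.0501 with the median intron, and over 5084 TUs of chromosomes 1 to 3 these were 0.541, -0.410, 0.260 and -0.0164. TUs of a chromosome share libraries and assembly, so the values are descriptions. FPKM is scaled to exon length, which also enters the exonic share, and introns needed at least 5 reads per junction. Activity, exon number and exonic share are therefore not independent measures. How far this set the values was not tested.

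Chromosome 25 stood at the end of several ranges but not of the exonic share, the share transcribed or the FPKM percentile. It was the smallest and densest, with the shortest introns and spans and the highest share of introns under 100 bp. It also had the lowest maximum FPKM and the lowest overlap of opposite neighbours, counted among TUs of at least 5 kb only. Chromosome 20, the largest and least dense, had the longest introns and spans and the highest exonic share. Over the 12, density had a Spearman rho of -0.937 with median intron length and -0.832 with median span but -0.266 with the FPKM percentile, again as a description, and density and span share the same TUs. Chromosome 21 combined the highest share transcribed (60.4%) with the smallest gap between opposite neighbours. Its median FPKM percentile was 61.4 over all TUs and 58.4, the lowest of the 12, at equal exon-number weights. Chromosome 23, with the lowest share transcribed (38.9%), had 61.2 and 64.9 on these 2 measures. Over the 12, the share transcribed had a Spearman rho of 0.580 with the FPKM percentile of all TUs, also as a description.

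Introns of chromosomes of intermediate size lay between those of the 2 groups or overlapped the longer ones of the microchromosomes. Their medians were 766 to 924 bp on chromosomes 4 to 8 and 554 to 788 bp on chromosomes 9 to 15. Against chromosomes 9 to 15 (n = 7), the microchromosomes still had shorter introns, by -207 bp (exact permutation p = 0.000238, adjusted 0.00143), and shorter spans, by -3.99 kb (exact permutation p = 3.97e-05, adjusted 0.000714). Short spans were not particular to chromosomes 17 to 28, since chromosomes 16 and 29 to 38 (n = 11) had medians of 4.78 to 8.08 kb. Introns of these 11 had medians from 194 to 2285 bp. Other differences from chromosomes 1 to 3 did not pass the exact permutation test against chromosomes 9 to 15 and were not shown to be particular to chromosomes 17 to 28. These were the exonic share (0.253 percentage points, exact permutation, adjusted p = 0.880), the matched exonic share (2.54 points, 0.0606), the share on both strands (0.0451 points, 0.879), the FPKM percentile (3.95 points, 0.156), exon number (0.679, 0.156), the single-exon share (1.17 points, 0.538) and the opposite-strand gap (0.887 kb, 0.156), the last 2 with a change of sign.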

How the data were processed

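According to the methods of the study, the authors trimmed reads with cutadapt, aligned them with HISAT2 to chicken assembly ASM2420605v2, split them by strand, removed duplicates with SAMtools, pooled all experiments and ran StringTie 2.2.2 separately on forward and reverse reads. The deposited annotation gives exons with coverage, FPKM and TPM for 40714 transcripts of 22884 TUs, 2 of them mitochondrial and left out. Per the file header, transcripts had at least 1000 bp, a coverage of at least 1.2 (3.5 for a single exon), at least 5 reads per junction and an isoform fraction of at least 0.05, and alignments up to 300 bp apart were joined. Unspliced nuclear RNA joined in this way counts as exon.

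Each TU entered as its isoform of highest FPKM, on the deposited strand or, without one, that of its run. Chromosomes 17 to 28 were compared with chromosomes 1 to 3 by two-sided exact permutation tests of means over all 455 assignments, with Benjamini-Hochberg adjustment over 18 measures and a threshold of 0.05. The script was tested on simulated data. Wilson intervals cover counting error only and treat TUs as independent. Named TUs were, per chromosome, the highest FPKM percentile and the most exons, the 5 longest, the strongest 3 convergent and 3 divergent pairs, the 3 highest and 3 lowest exonic shares among TUs of at least 10 exons, and TUs of median span at equal exon number. The members, measures and naming rule were chosen with earlier results of these data known. Alternatives merged isoforms, required longer TUs, dropped opposite-to-run or weaker TUs, used chromosomes 9 to 15, left out chromosome 25, matched exact exon numbers or used log10 FPKM. Leaving out each chromosome was added after seeing the data. Python 3.11.15, numpy 2.4.6, pandas 2.3.3, scipy 1.17.1 and matplotlib 3.10.9 were used.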

Additional observations from a re-analysis of the deposited data

How the results depend on the processing

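Of 108 values under other settings, 89 kept their direction and side of the threshold, 8 lost the call and 11 changed sign. TU density, span, introns and the number of TUs within 50 kb held under every one run, and so did matched span and matched introns. Dropping TUs opposite to their run, or chromosome 25, changed no call of the 18. The exon number differed by 1.42 with isoforms merged, -0.0417 among the more active TUs (not below the median FPKM of their run) and 0.679 against chromosomes 9 to 15. Internal exon length, not called, differed by -0.792 with isoforms merged, -0.0833 among the more active and -1.74 bp against chromosomes 9 to 15. Against these chromosomes the difference was 1.17 for the single-exon share, 0.253 for the exonic share, 2.54 for the matched exonic share, -8.46 for the share transcribed, 0.0451 for both strands, -6.53 for opposite-strand overlap (exact permutation, adjusted p = 0.0386), 0.887 kb for the opposite-strand gap and 3.95 for the FPKM percentile. Among longer TUs only (at least 5 kb, or 10 kb for pairs) it was 8.69 for the share transcribed (call lost), -2.09 for opposite-strand overlap, -0.981 kb for the gap and 0.494 for the co-directional share, which was 2.21 among the more active TUs. The cause was not tested. Leaving out each chromosome in turn, chosen after seeing the data, gave 1.25 to 1.75 for exon number, -0.394 to 0.697 bp for internal exons, 8.85 to 14.4 for the share transcribed and -7.59 to -4.06 kb for the gap, and no other call was lost. With no replicate values, errors between oocytes cannot be given, and TUs under the coverage minima are missing. No paired analysis was possible because the file holds pooled values only, so the replicate numbers of the labels are on no column. Chromosome lengths from a reference of the build were not run, since none was given.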
